A study of Mus musculus with 6 samples.

Results

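The genes described here are 38 enzymes, regulatory subunits and transporters of sphingolipid synthesis, ceramide turnover and sphingosine-1-phosphate (S1p) production, export and breakdown. They were taken from a written list of symbols, matched to Ensembl gene identifiers, and all 38 were found among the 37224 genes of the count table. Of these, 33 had enough reads to be tested. Counts came from RNA-seq of whole wt mouse pancreata (strain C57/Bl6J) at 13.5 dpc and at 15.5 dpc, with 3 samples per stage and no other treatment or allele. Each sample was a pool of pancreata from up to 3 embryos, so a sample is neither a single embryo nor a single cell type. Because the whole organ was read, fewer cells of a type and less RNA per cell cannot be told apart in any value below.

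Sphingolipids are built from serine and palmitoyl-CoA by serine palmitoyltransferase. The long-chain base so formed is reduced, joined to a fatty acid by a ceramide synthase and desaturated to ceramide. Ceramide is the hub of the pathway: it is converted to sphingomyelin or to glycosylated lipids, or it is cut by ceramidases to sphingosine. Sphingosine kinases phosphorylate sphingosine to S1p, which leaves the cell through a transporter and acts on G protein-coupled receptors. S1p is returned to sphingosine by phosphatases or cleaved irreversibly by S1p lyase. The study asked how S1p signalling bears on lineage allocation in the developing pancreas, and the stage comparison shows which steps of this pathway differed in transcript level between 13.5 and 15.5 dpc.

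Reads counted in genes numbered 12895732 to 16389237 per sample at 13.5 dpc and 10546028 to 12491550 at 15.5 dpc. Replicates of a stage differed from each other by more than counting noise, and the 15.5 dpc samples were the more spread, with a median coefficient of variation of 18.0% per gene over all genes tested against 6.55% at 13.5 dpc. Markers of pancreas epithelium were present in every sample, with *Pdx1* at 1194 to 1470 normalised counts. Summed acinar markers stood at 59689 to 73321 normalised counts at 13.5 dpc and at 527390 to 1157719 at 15.5 dpc, and all 9 were called higher. Epithelial markers summed to 24956 to 26159 and then to 32987 to 44167, and 4 of 7 were called higher. Mesenchyme markers summed to 122971 to 139135 and then to 91490 to 135785, with 2 of 10 called higher and 2 lower. Endothelial markers summed to 7868 to 8400 and then to 8511 to 8959, with 1 of 10 called higher, and leukocyte markers to 2263 to 2292 and then to 1731 to 2025, with 4 of 10 called lower. Endocrine markers summed to 30530 to 32959 and then to 32930 to 53970, with 6 of 10 called higher and 2 lower, and neural markers to 2047 to 2338 and then to 1511 to 2151, with 3 of 8 called lower. Erythroid markers summed to 678 to 833 and then to 703 to 1020, with 1 of 7 tested called higher and 2 lower. Megakaryocyte and platelet markers summed to 254 to 284 and then to 185 to 367, with 1 of 5 tested called lower. Mesothelial markers summed to 2973 to 3021 and then to 3093 to 3979, with 2 of 6 called higher and 1 lower. Liver and gut markers summed to 1141 to 1672 and then to 1019 to 1319, with 1 of 4 tested called higher and 1 lower. None of the markers matched to a gene was at 0 counts in all samples. The part of these shifts in the values below was not tested.

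A normalised count is a read count scaled to a common effective library size, and a gene was called when its adjusted p in edgeR's quasi-likelihood test was at or below 0.05. At this threshold 8 of the 33 tested genes were called. The genes *Ormdl2*, *Degs1*, *Sgms2*, *Smpd3*, *Spns2* and *Sgpp1* were higher at 15.5 dpc, and *Gba2* and *Sgpl1* were lower. The 8 genes were 24.2% of those tested, and 22.3% of all 15578 genes tested were called, so the called share of the pathway lay near that of the transcriptome and is not a result about the pathway. The 6 higher genes were 18.2% of the tested genes beside 11.6% of all genes, and the 2 lower genes were 6.06% beside 10.7%.

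The differences were small. Log2 fold changes ranged from -0.60 to 0.65 with a median of 0.05, beside -0.01 over all genes. Of the tested genes 29 stayed within 1.5-fold, whereas 23.8% of all genes were beyond it. In 12 genes every 15.5 dpc sample lay above every 13.5 dpc sample, in 8 genes every 15.5 dpc sample lay below, and in 13 the stages overlapped. The 20 genes without overlap were 60.6% of those tested, beside 46.4% of all genes, of which 22.8% lay above and 23.6% below. The study's methods asked for a fold below 0.6 or above 1.6, a level over 100 and an adjusted p of 0.1 or less, and with these limits edgeR called none of the genes, and DESeq2 called none either. An unadjusted edgeR p below 0.05 was found for 15 of the 33 genes, and for 39.1% of all genes tested. Those limits kept 6.3% of all genes as higher and 3.58% as lower in edgeR.

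**Figure D1:**
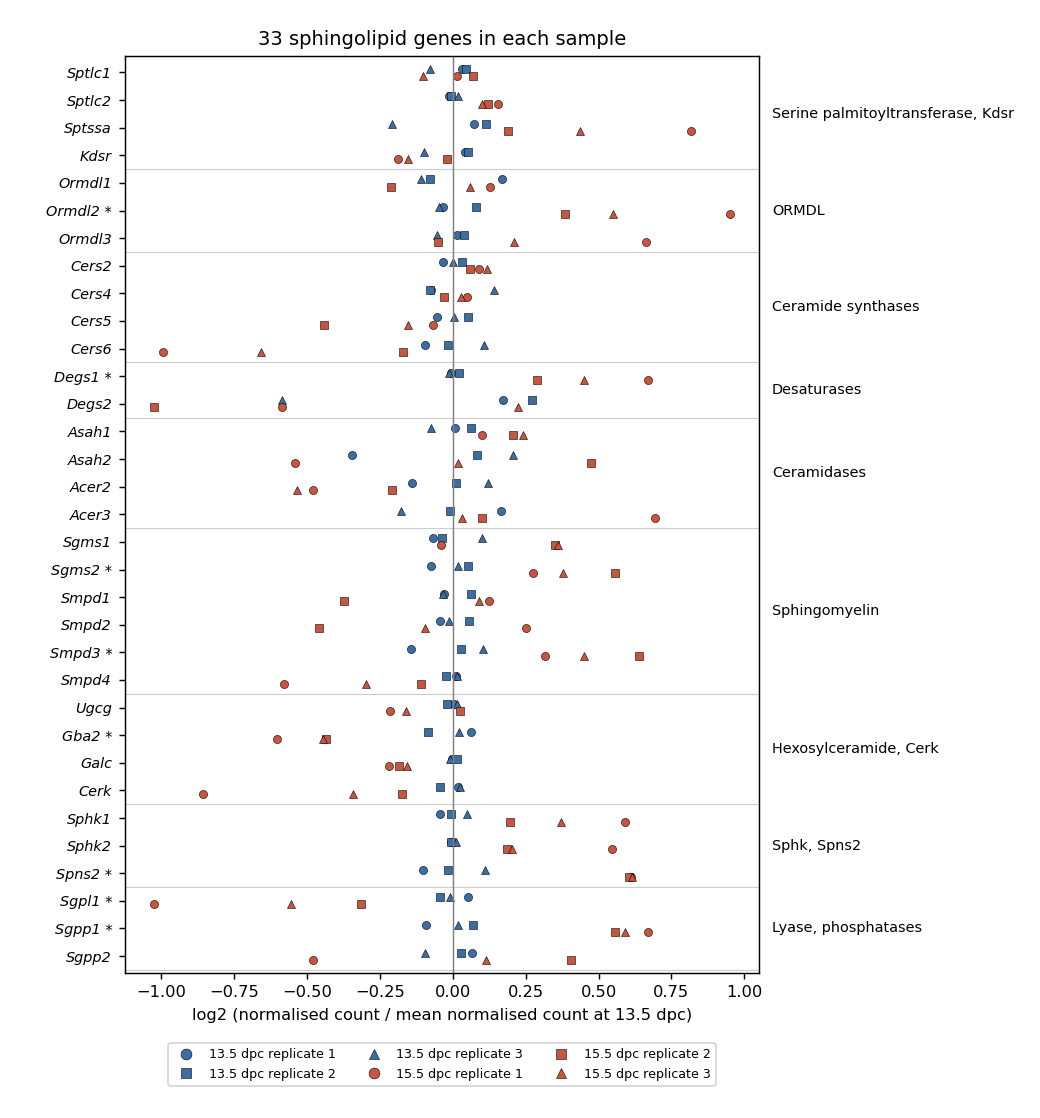
Normalised counts of each of the 33 tested genes in every sample, as the log2 ratio to the gene's mean over the 3 samples of 13.5 dpc. Genes are ordered by role, circles, squares and triangles are replicates 1, 2 and 3, blue is 13.5 dpc and red is 15.5 dpc, and most red points lie within 1 log2 unit of the blue ones.

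Short promoter sequences are given for those called genes whose RefSeq promoter window (250 bases before to 50 after the start in the table, build GRCm38.p6) is the only one listed and meets the 5′ end of the gene in the count table, since these are the members whose transcript level differed. The 250 upstream bases are printed 5′ to 3′ on the gene's own strand, and capitals mark each match, on either strand, to GGGCGG (the core of the GC box), to CCAAT or to CACGTG (an E-box). The first 2 genes were higher and the last 2 were lower at 15.5 dpc.

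Sgpp1 promoter, chr12:75735730-75735979, minus strand: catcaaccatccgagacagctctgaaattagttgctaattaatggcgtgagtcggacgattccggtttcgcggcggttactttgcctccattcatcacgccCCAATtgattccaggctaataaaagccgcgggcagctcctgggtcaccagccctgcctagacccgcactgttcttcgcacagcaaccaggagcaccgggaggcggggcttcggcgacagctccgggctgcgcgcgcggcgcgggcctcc

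Ormdl2 promoter, chr10:128821630-128821879, minus strand: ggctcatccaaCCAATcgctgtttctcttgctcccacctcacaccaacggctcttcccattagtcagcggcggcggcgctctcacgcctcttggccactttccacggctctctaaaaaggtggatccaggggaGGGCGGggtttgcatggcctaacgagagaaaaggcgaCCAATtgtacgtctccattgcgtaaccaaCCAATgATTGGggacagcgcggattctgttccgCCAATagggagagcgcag

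Sgpl1 promoter, chr10:61147685-61147934, minus strand: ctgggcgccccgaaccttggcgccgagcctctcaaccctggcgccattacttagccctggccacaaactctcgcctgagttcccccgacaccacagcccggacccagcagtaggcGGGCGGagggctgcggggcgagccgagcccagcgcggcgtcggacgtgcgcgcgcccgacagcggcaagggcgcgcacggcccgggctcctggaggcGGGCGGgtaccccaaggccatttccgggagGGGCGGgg

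Gba2 promoter, chr4:43578865-43579114, minus strand: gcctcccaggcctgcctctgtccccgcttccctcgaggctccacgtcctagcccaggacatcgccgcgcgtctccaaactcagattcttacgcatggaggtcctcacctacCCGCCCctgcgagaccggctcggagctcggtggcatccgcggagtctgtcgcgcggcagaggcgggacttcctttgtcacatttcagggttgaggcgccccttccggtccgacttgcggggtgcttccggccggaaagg

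The *Ormdl2* window held 5 matches to CCAAT and 1 to GGGCGG, and the *Sgpl1* window held 3 matches to GGGCGG, whereas the *Sgpp1* window held 1 CCAAT and the *Gba2* window 1 GGGCGG. GC content was 57.2% for *Ormdl2*, 61.2% for *Sgpp1*, 66.8% for *Gba2* and 74.8% for *Sgpl1*. The median was 61.2% over the 51 windows of the listed genes and 52.4% over all 32851 windows. Of the 36 genes with a window, 25 held GGGCGG, 14 held CCAAT and 7 held CACGTG in at least 1 of their 51 windows, and these motifs were found in 32.7%, 33.8% and 6.02% of all windows, counted per window and not per gene. TATAAA was found for 1 gene, *Sphk1*, and in 12.4% of all windows. A match to letters is a description of the sequence and shows no binding.

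The committed step of the pathway was carried by 1 set of subunits at both stages. To compare genes, levels are given as RPKM, read counts scaled by exon length and by effective library size. *Sptlc1*, the shared subunit of serine palmitoyltransferase, stood at 21.3 RPKM at 13.5 dpc and 21.2 RPKM at 15.5 dpc. It gave 718, 724 and 665 normalised counts in the earlier samples and 709, 737 and 654 in the later, so the stages overlapped. The catalytic partner *Sptlc2* had 908, 911 and 927 normalised counts and then 1020, 994 and 980, a shift that separated the stages but was only 0.12 on the log2 scale (SE 0.08, edgeR adjusted p = 0.288). The alternative partner *Sptlc3* had at most 1 read in any sample and the small subunit *Sptssb* at most 3, and neither was tested. *Sptlc2* thus made up 99.8% of the length-scaled reads of the partner pair at 13.5 dpc and *Sptssa* 99.8% of those of the small subunits.

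*Sptssa*, a small subunit that activates the enzyme, had the highest level of all 33 genes per length, at 57.6 ± 6.78 RPKM (SD, n = 3) at 13.5 dpc and 81.7 ± 18.3 at 15.5 dpc. Its normalised counts were 1043, 1074 and 858 and then 1749, 1130 and 1342. All of the later samples lay above the earlier ones, but replicate 1 of 15.5 dpc stood far above its 2 fellows, and the gene was not called (log2 fold change 0.50, SE 0.17, edgeR adjusted p = 0.0756; 0.32 on the log2 scale without that library). With the dependence of each library on exon length removed, as described for the fold changes below, the value was 0.27 with an edgeR adjusted p of 0.0424. *Kdsr*, which reduces the first product, had 310 to 344 and then 291 to 327 normalised counts and was not called.

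The ORMDL proteins restrain serine palmitoyltransferase, and 1 of the 3 genes was called. *Ormdl2* (ENSMUSG00000025353, chr10:128817457-128821631 in mm10) had 349, 378 and 346 normalised counts at 13.5 dpc and 692, 467 and 523 at 15.5 dpc. Every 15.5 dpc sample was above every 13.5 dpc sample, and the gene rose 1.57-fold (log2 fold change 0.65, SE 0.16, edgeR adjusted p = 0.025). *Ormdl3* had 912, 929 and 871 and then 1430, 873 and 1046 normalised counts, and *Ormdl1* had 446, 376 and 368 and then 433, 342 and 413. Both overlapped between stages and were not called. The share of *Ormdl2* in the summed RPKM of the 3 genes was 24.9%, 26.7% and 26.1% at 13.5 dpc and 31.1%, 32.5% and 31.0% at 15.5 dpc, while *Ormdl3* moved from a mean share of 61.6% to 58.6% and *Ormdl1* from 12.5% to 9.84%. In each of these shares the stages did not overlap, and the exact two-sided permutation test gave p = 0.1, the smallest that 3 samples against 3 can give. Of the exon bases of *Ormdl2*, 75.9% overlap *Dnajc14* on the opposite strand. Among 137 genes lying wholly within opposite-strand exons of other genes, 28 still held 10 or more reads in all, whereas none of 323 genes within same-strand exons did, so the counts appear to separate strands.

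**Figure D2:**
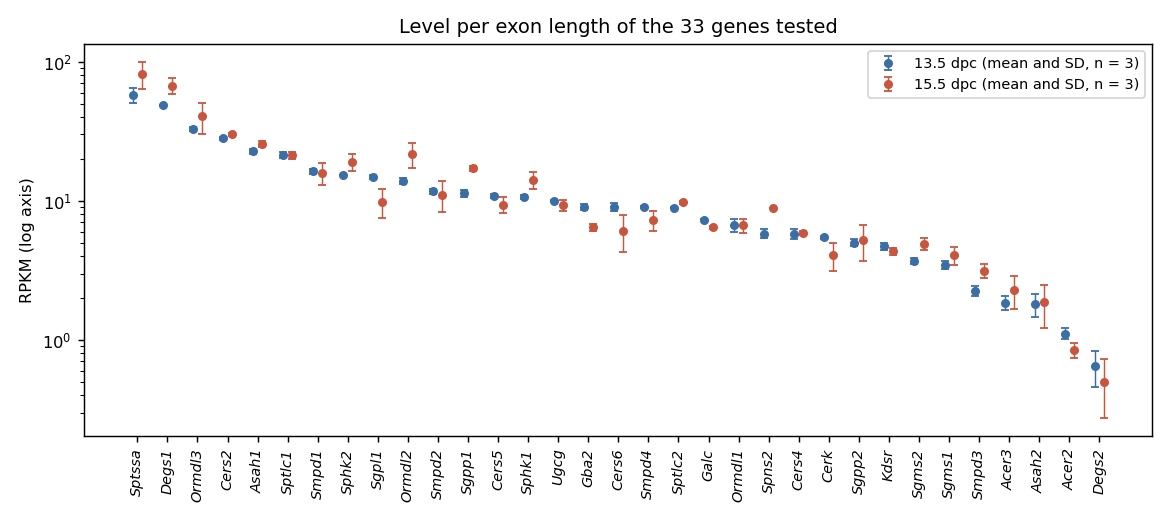
Mean level of each of the 33 tested genes in RPKM on a log axis, with blue for 13.5 dpc and red for 15.5 dpc and bars for the SD over 3 samples. Levels ran from *Degs2*, below 1 RPKM, to *Sptssa*, above 50 RPKM.

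Ceramide synthases join a fatty acid to the base, and each isoenzyme prefers certain chain lengths. *Cers2*, which uses very long chains, was the most abundant at both stages, at 28.2 and 30.0 RPKM. Its normalised counts were 1278, 1335 and 1309 and then 1391, 1361 and 1418. *Cers6*, which prefers C16 chains, had 851, 899 and 981 normalised counts and then 457, 808 and 577. The later samples of *Cers6* all lay below the earlier ones but replicate 2 came close to them, and the gene was not called (log2 fold change -0.57, SE 0.20, edgeR adjusted p = 0.0787). DESeq2 gave an adjusted p of 0.0454 for *Cers6*, and edgeR gave 0.0218 with the exon-length dependence removed, at a log2 fold change of -0.35. *Cers5* had 648 to 698 normalised counts and then 496 to 642, below throughout but not called, and *Cers4* had 442 to 514 and then 457 to 482. *Cers1* had at most 1 read in any sample and *Cers3* at most 8, so both fell below the filter. Of the exon bases of *Cers1*, 86% overlap another gene on the same strand, and since reads in such shared exons were rarely counted, its low count and share do not show that it was not expressed.

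Within the ceramide synthases, *Cers2* thus held 53.0%, 52.8% and 51.0% of the summed RPKM at 13.5 dpc and 58.7%, 57.4% and 58.8% at 15.5 dpc. The share of *Cers6* was 16.3%, 16.4% and 17.6% and then 8.88%, 15.7% and 11.0%. Both shares separated the stages (exact two-sided permutation p = 0.1 for each, the smallest possible). The shares of *Cers4* and *Cers5* overlapped between stages. The difference of stage means was 6.03 percentage points for *Cers2* and -4.88 for *Cers6*, although neither gene was itself called.

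**Figure D3:**
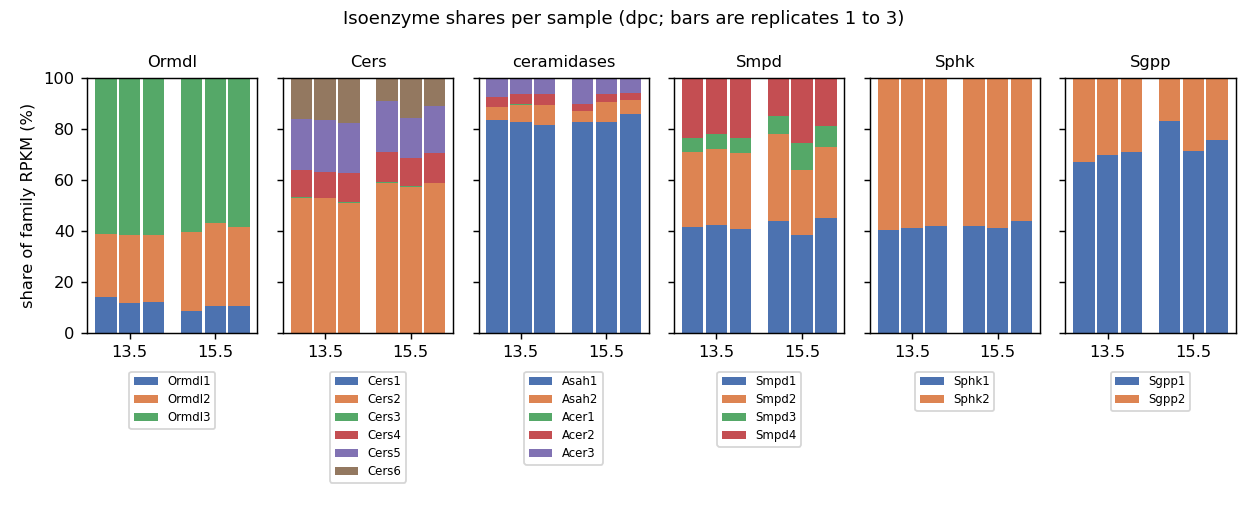
Share of each isoenzyme in the summed RPKM of its family, in percent, for each of the 3 samples of 13.5 dpc and of 15.5 dpc. *Cers2* and *Ormdl2* take a larger share at 15.5 dpc in all samples, and the *Sphk1* and *Sphk2* shares overlap between stages.

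*Degs1*, the desaturase that makes ceramide from dihydroceramide, had 1579, 1610 and 1572 normalised counts at 13.5 dpc and 2526, 1937 and 2168 at 15.5 dpc. It rose 1.39-fold (log2 fold change 0.48, SE 0.11, edgeR adjusted p = 0.024), with every later sample above every earlier one. At 48.5 ± 0.616 RPKM (SD, n = 3) and then 67.5 ± 9.06, it was the second most abundant of the genes per length. *Degs2*, a desaturase and hydroxylase that makes phytoceramide, had 14.3 to 35.2 normalised counts over all samples and overlapped between stages. *Degs1* lies at chr1:182275772-182282804 in mm10 (ENSMUSG00000038633).

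Ceramidases release sphingosine, the substrate of the sphingosine kinases, and none of the 4 tested was called. *Asah1*, the lysosomal acid ceramidase, held 82.6% of the family's summed RPKM at 13.5 dpc and 83.8% at 15.5 dpc. It had 980, 1018 and 924 and then 1045, 1123 and 1150 normalised counts, above throughout but by only 0.18 on the log2 scale (SE 0.09, edgeR adjusted p = 0.173). *Acer2*, the Golgi alkaline ceramidase, had 91.1, 101 and 109 and then 72, 86.9 and 69.3 normalised counts. These were lower in every later sample (log2 fold change -0.40, edgeR adjusted p = 0.102), and 41.1% of the exon bases of *Acer2* overlap another gene on the same strand. *Asah2* and *Acer3* overlapped between stages at 73.3 to 148 and 89.1 to 163 normalised counts, and *Acer1* had 1 read in 1 sample of 13.5 dpc and none in the others.

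Among the genes of sphingomyelin, the synthase gene *Sgms2* and the sphingomyelinase gene *Smpd3* were called higher. *Sgms2*, a synthase that makes sphingomyelin at the cell surface, had 260, 284 and 277 normalised counts at 13.5 dpc and 331, 402 and 356 at 15.5 dpc (1.33-fold, log2 fold change 0.41, SE 0.11, edgeR adjusted p = 0.0386). *Smpd3*, a Golgi-associated neutral sphingomyelinase that turns sphingomyelin back into ceramide, had 133, 150 and 158 and then 183, 229 and 201 (1.39-fold, log2 fold change 0.48, SE 0.14, edgeR adjusted p = 0.0437). In both genes the stages did not overlap. Both calls were close to the threshold, and with the low-count filter left out the edgeR adjusted p was 0.0773 for *Sgms2* and 0.0742 for *Smpd3*.

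The other genes of this branch were not called. *Sgms1*, the Golgi synthase, had 428, 438 and 481 and then 437, 573 and 577 normalised counts, and its log2 fold change of 0.24 (edgeR adjusted p = 0.22) became 0.53 (edgeR adjusted p = 0.00611) once the exon-length dependence was removed. *Smpd4*, a neutral sphingomyelinase, had 1028, 1002 and 1029 and then 682, 946 and 829, lower throughout (log2 fold change -0.31, SE 0.13, edgeR adjusted p = 0.113), but the value was -0.06 without the length dependence and -0.20 without replicate 1 of 15.5 dpc. *Smpd1*, the acid sphingomyelinase, and *Smpd2* overlapped, at 384 to 542 and 480 to 786 normalised counts over all samples. The mean share of *Smpd3* in the summed RPKM of the 4 sphingomyelinases was 5.75 ± 0.451% (SD, n = 3) and then 8.52 ± 1.93%, without overlap (exact two-sided permutation p = 0.1). The difference of 2.78 percentage points was 1.71 without replicate 2 of 15.5 dpc.

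All 4 genes that glycosylate, deglycosylate or phosphorylate ceramide had negative log2 fold changes, and 1 of them was called. *Gba2*, the non-lysosomal glucosylceramidase (ENSMUSG00000028467, chr4:43566928-43578873 in mm10), had 536, 483 and 520 normalised counts at 13.5 dpc and 338, 379 and 377 at 15.5 dpc. It fell to 0.711 of its earlier level (log2 fold change -0.49, SE 0.10, edgeR adjusted p = 0.0145), with a wide gap between the stages. *Cerk*, the ceramide kinase, had 338, 324 and 339 and then 184, 296 and 263, below throughout and not called (log2 fold change -0.43, SE 0.17, edgeR adjusted p = 0.11), and its log2 fold change was -0.25 without replicate 1 of 15.5 dpc. *Galc*, the lysosomal galactosylceramidase, had 351 to 357 and then 304 to 317 normalised counts, and *Ugcg*, which makes glucosylceramide, had 652 to 668 and then 569 to 672, and neither was called. *Ugcg* stood at 0.01 on the log2 scale once the exon-length dependence was removed, so the shared sign of the 4 genes did not hold there.

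The S1p branch held the 2 calls that were retained whichever sample was left out. *Spns2*, the transporter that exports S1p from endothelial and other cells (ENSMUSG00000040447, chr11:72451638-72489904 in mm10), had 279, 296 and 323 normalised counts at 13.5 dpc and 457, 455 and 458 at 15.5 dpc. It rose 1.53-fold (log2 fold change 0.61, SE 0.10, edgeR adjusted p = 0.00612), and its 3 later samples were nearly equal. Of the 10 endothelial markers *Esam* was called higher (log2 fold change 0.46, edgeR adjusted p = 0.0406), the others overlapped between stages and the median log2 fold change of the list was 0.06, and the part of the endothelium in the *Spns2* value was not tested. *Sgpp1*, the phosphatase that returns S1p to sphingosine (ENSMUSG00000021054, chr12:75714248-75735729), had 444, 497 and 480 and then 754, 696 and 713. It rose 1.52-fold (log2 fold change 0.61, SE 0.09, edgeR adjusted p = 0.00508). With each sample left out in turn, the log2 fold change was 0.56 to 0.67 for *Spns2* and 0.56 to 0.64 for *Sgpp1*, and the highest edgeR adjusted p was 0.048 and 0.043.

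*Sgpl1*, the S1p lyase that ends the pathway (ENSMUSG00000020097, chr10:61098642-61147703), moved the other way. It gave 1201, 1123 and 1151 normalised counts in the earlier samples and 569, 931 and 788 in the later, and it fell to 0.659 of its earlier level (log2 fold change -0.60, SE 0.17, edgeR adjusted p = 0.0434). The later samples all lay below the earlier ones but were spread widely, with replicate 1 the lowest. *Sgpp2*, the second phosphatase, had 264, 257 and 236 and then 181, 334 and 273 normalised counts and overlapped between stages. The share of *Sgpp1* in the summed RPKM of the phosphatases was 66.9%, 69.9% and 70.9% and then 83.3%, 71.5% and 75.8%, without overlap (exact two-sided permutation p = 0.1). The difference of 7.63 percentage points was 4.39 without replicate 1 of 15.5 dpc.

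**Figure D4:**
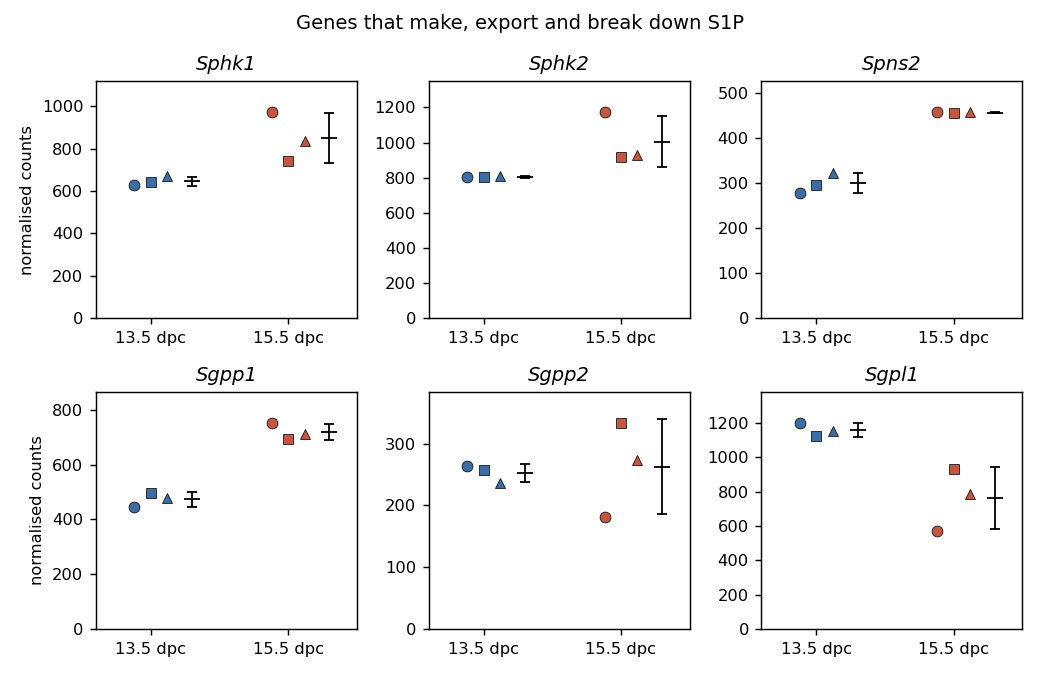
Normalised counts of the genes that make, export and break down S1p in the 3 samples of 13.5 dpc (blue) and the 3 of 15.5 dpc (red), with the mean and SD beside them and circles, squares and triangles for replicates 1, 2 and 3. *Spns2* and *Sgpp1* lie higher at 15.5 dpc and *Sgpl1* lower, and replicate 1 of 15.5 dpc is the highest for *Sphk1* and *Sphk2* and the lowest for *Sgpl1*.

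Both sphingosine kinases lay above their 13.5 dpc level in every later sample, but neither was called. *Sphk1* (chr11:116530925-116536674 in mm10) had 627, 643 and 669 normalised counts and then 973, 740 and 835, a log2 fold change of 0.39 (SE 0.12, edgeR adjusted p = 0.0523). *Sphk2* (chr7:45709467-45718002) had 802, 802 and 810 and then 1174, 916 and 927, a log2 fold change of 0.32 (SE 0.12, edgeR adjusted p = 0.0885) that was 0.20 without replicate 1 of 15.5 dpc. With the exon-length dependence removed the edgeR adjusted p was 0.0242 for *Sphk1* and 0.0385 for *Sphk2*. DESeq2 gave an adjusted p of 0.0242 for *Sphk1* and 0.0651 for *Sphk2*. Scaling by library size alone gave log2 fold changes of 0.17 for *Sphk1* (edgeR adjusted p = 0.212) and 0.10 for *Sphk2* (edgeR adjusted p = 0.441). The proportion of the kinases overlapped between stages, with *Sphk1* at 41.2 ± 0.681% (SD, n = 3) and 42.4 ± 1.39% of their summed RPKM, a difference of 1.23 percentage points (exact two-sided permutation p = 0.2) that was 0.449 without replicate 3 of 15.5 dpc and 1.78 without replicate 2. All 3 genes that make or export S1p therefore separated the stages upwards, where 22.8% of all genes did so.

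The contrast between S1p lyase and the other S1p genes can be read within each library as a ratio of RPKM, which was chosen after the values were seen. The summed RPKM of *Sphk1* and *Sphk2* over that of *Sgpl1* was 1.66, 1.79 and 1.79 at 13.5 dpc and 5.25, 2.48 and 3.10 at 15.5 dpc, a mean 2.07-fold higher. For *Sgpp1* over *Sgpl1* the ratio was 0.683, 0.818 and 0.770 and then 2.45, 1.38 and 1.67, a mean 2.42-fold higher. Since each of these genes separated the stages on its own, the ratios were bound to do so and were not tested, and replicate 1 of 15.5 dpc held the highest value of both. Without that library the means were 1.59-fold and 2.01-fold higher. With the exon-length dependence removed the log2 fold changes were -0.45 for *Sgpl1*, 0.51 for *Sphk1*, 0.40 for *Sphk2* and 0.62 for *Sgpp1*. These are transcript ratios, and no S1p was measured.

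Of the 5 S1p receptors 4 were tested and 1 was called. *S1pr3* had 1325, 1290 and 1353 normalised counts at 13.5 dpc and 649, 862 and 824 at 15.5 dpc (log2 fold change -0.76, SE 0.12, edgeR adjusted p = 0.00579), and *S1pr2* had 857, 807 and 853 and then 703, 795 and 774, which was not called.

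A further list of 43 genes of the same pathway (lipid transfer, complex glycolipid synthesis and breakdown, sphingosine and fatty acid handling) had 41 tested genes, of which 4 were higher and 4 lower. Together they were 19.5% of those tested, again near the 22.3% of all genes. Gangliosides are sialic acid-bearing glycolipids, and of their synthases *B4galnt1* was called higher and *St8sia1* lower. *B4galnt1*, the GM2/GD2 synthase, had 74.7, 58.3 and 65.4 normalised counts at 13.5 dpc and 331, 185 and 186 at 15.5 dpc (log2 fold change 1.82, SE 0.26, edgeR adjusted p = 0.00389). *St8sia1*, the GD3 synthase, had 311, 304 and 302 and then 73.3, 137 and 91.9 (log2 fold change -1.58, SE 0.21, edgeR adjusted p = 0.00298). These enzymes compete for the same GM3 precursor or act in series on it, and their RPKM ratio, chosen after the values were seen, was 0.892, 0.712 and 0.804 and then 16.7, 5.01 and 7.52, with no test since each gene already separated the stages. The mean ratio was 12.1-fold higher at 15.5 dpc, and 7.8-fold higher without replicate 1 of that stage. With the exon-length dependence removed the log2 fold changes were 1.73 for *B4galnt1* and -1.35 for *St8sia1*.

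The paralogues of acid sphingomyelinase rose as well. *Smpdl3b* had 104, 109 and 94.1 normalised counts and then 259, 192 and 222 (log2 fold change 1.13, SE 0.15, edgeR adjusted p = 0.00287), and *Smpdl3a* had 168, 177 and 187 and then 307, 286 and 290 (log2 fold change 0.73, SE 0.10, edgeR adjusted p = 0.00389). Their relative *Smpd1* overlapped between stages. *B4galnt1*, *St8sia1*, *Smpdl3a* and *Smpdl3b* were called whichever sample was left out. The remaining 4 calls were smaller than 0.5 on the log2 scale, in *Glb1* (0.44), *Rtn4* (-0.32, and -0.11 with an edgeR adjusted p of 0.426 once the exon-length dependence was removed) and the lactosylceramide synthases *B4galt5* (-0.40) and *B4galt6* (-0.47).

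Fold changes moved with exon length over the whole table, and the cause was not tested. Across the 33 genes Spearman's correlation of the log2 fold change with exon length was -0.43, beside -0.36 over all genes tested, and genes of 1 library are not independent. The 6 genes called higher had exon lengths of 2055 to 5873 bases, and the 2 called lower had 4481 and 6143 bases. When the dependence was taken out library by library, the correlation across the 33 genes was -0.16. All 8 calls remained, and *Sptssa*, *Sgms1*, *Sphk1* and *Sphk2* were called higher and *Cers6* lower in addition. That fit called 10 of the 33 genes higher, where 18.1% of all genes were called higher, and 3 lower, where 14.7% of all genes were.

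**Figure D5:**
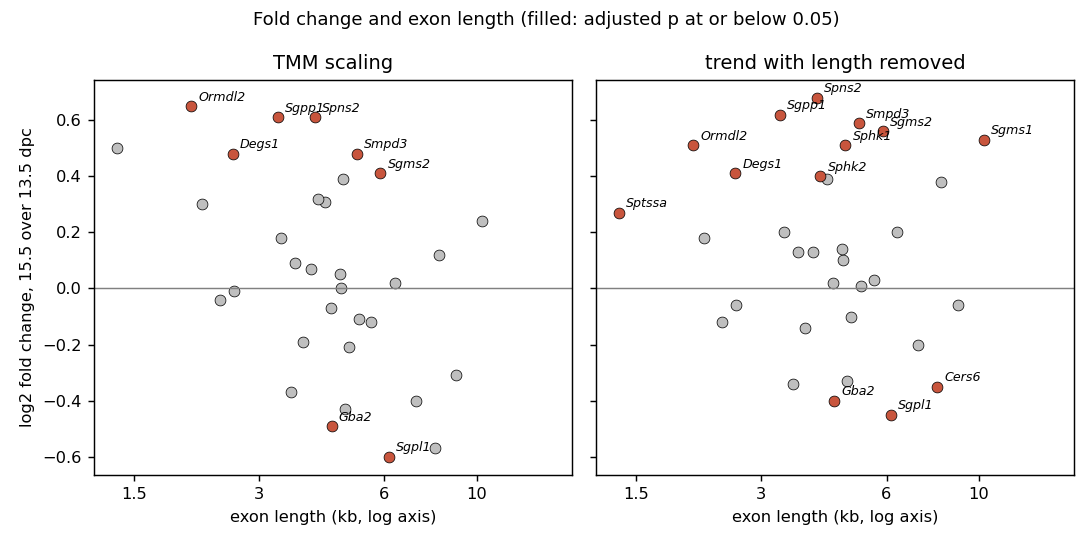
Log2 fold change of each tested gene against its exon length in kb on a log axis, with the standard scaling on the left and with each library's trend with length removed on the right. Red points are called by edgeR, and the right panel adds *Sptssa*, *Sgms1*, *Sphk1*, *Sphk2* and *Cers6* to the 8 of the left panel.

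Most genes were more spread among the later samples. In 29 of the 33 genes the coefficient of variation was larger at 15.5 dpc, with medians of 4.81% at 13.5 dpc and 13.4% at 15.5 dpc. Replicate 1 of 15.5 dpc was the lowest of its stage in 14 genes and the highest in 14, and replicate 2 was the lowest in 15 and the highest in 13, so the extremes of most genes came from these libraries and replicate 3 lay between them. *Spns2* and *Sgpp1* were the called genes with the smallest scatter beside their difference. The calls of *Ormdl2*, *Degs1*, *Sgms2*, *Smpd3*, *Gba2* and *Sgpl1* were lost on leaving out any 1 sample of 13.5 dpc or replicate 3 of 15.5 dpc, and held without replicate 1 or replicate 2 of 15.5 dpc. Scaling by library size alone ended the calls of *Degs1*, *Sgms2* and *Smpd3* (edgeR adjusted p = 0.0679, 0.312 and 0.244) and kept those of the other called genes.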

How the data were processed

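RNA was extracted from whole wt pancreata, and poly(A) RNA was made into strand-specific single-end libraries. The authors aligned reads to mm10 with GSNAP and deposited raw counts per gene of an Ensembl annotation, made with featureCounts 1.4.6 (reads called with bcl2fastq 1.8.4). The strand setting is not given in the sources used here. Symbols were matched for 35449 of 37224 identifiers. Samples were grouped by stage from their titles, with 3 per stage. Depth was 10546028 to 16389237 counts per sample.

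Genes passing filterByExpr were tested with edgeR 4.0.16 in R 4.3.3 (TMM scaling, quasi-likelihood F test on stage, Benjamini-Hochberg adjustment over 15578 genes, called at 0.05). The SE of a log2 fold change was its size over the square root of F. RPKM used the deposited exon length and effective library sizes. Isoenzyme shares were compared with an exact two-sided permutation test in scipy 1.17.1. Removal of exon-length dependence used a lowess trend per library (span 0.5) as offsets. DESeq2 1.42.0, other scalings and filters, a replicate block and leaving out each sample were alternatives. Scripts were tested on simulated data. Promoter sequences came from RefSeq (GRCm38.p6), and of the 38 genes 36 matched.

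Members and lists were chosen with earlier results of these data known. Every member was named, as was any other pathway gene called with a log2 fold change of at least 0.5 in size; S1p receptors, the smaller calls and the ratios were added after values were seen. Whether samples of a stage came from separate litters is not given, so p-values measure only the spread between these samples.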

Additional observations from a re-analysis of the deposited data

How the results depend on the processing

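The few reads of *Cers3*, *Sptlc3*, *Sptssb* and *Acer1* allow no comparison at this depth, nor do those of *Cers1*, most of whose exon bases are shared with another gene. Scaling by library size only shifted the log2 fold changes, with medians of -0.22 over the table and -0.14 over the 33 genes. It gave 3 higher, 5 lower and, of the other pathway genes, 9 lower. Of the 33 genes and the S1p receptors, *Sptlc2* (-0.09), *Cers2* (-0.12), *Cers4* (-0.20), *Asah1* (-0.026), *Asah2* (-0.14), *Sgpp2* (-0.13) and *S1pr4* (-0.082) turned negative there. Other pathway genes, such as *Psap* (-0.18) and *Hacd3* (-0.11), did so too. A downward shift of the whole table turns small positive values negative whatever the gene. Sign changes here and below are listed for the 33 genes and the S1p receptors only. With the exon-length trend removed 10 were higher, and other pathway genes numbered 10 higher and 9 lower; *Kdsr* (0.025), *Ormdl1* (0.10), *Smpd2* (0.023) and *Ugcg* (0.0097) changed sign. The study's thresholds kept 0 higher and 0 lower. DESeq2 size factors gave 2 other pathway genes lower, and *Sptlc1* (0.011) and *Ormdl1* (0.012) changed sign, as in the DESeq2 test (0.012 for both). *Cers4* was -0.016 with upper quartile scaling and -0.0096 without a filter. The share of *Smpd2* differed by 0.858 percentage points without division by length.

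Same-numbered samples did not deviate together (correlations 0.22, -0.218 and 0.0378), so the replicate numbers pair nothing. A replicate block gave 3 genes higher, 1 lower and 1 other pathway gene lower. With block and length trend removed together, 7 other pathway genes were higher, and *Kdsr* (0.027), *Ormdl1* (0.098) and *Ugcg* (0.0094) changed sign.

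Leaving out 1 sample gave 2 to 10 genes higher and 0 to 6 lower. These were 2 higher and 0 lower without each 13.5 dpc sample or without replicate 3 of 15.5 dpc, and 10 and 6 without replicate 2 of 15.5 dpc; over all genes 7.83% to 9.05% were called in the former fits and 48.0% in the latter. Other pathway genes numbered 3 to 9 higher and 1 to 11 lower. Log2 fold changes whose sign turned ranged over -0.045 to 0.042 for *Sptlc1*, -0.073 to 0.11 for *Ormdl1*, -0.023 to 0.09 for *Cers4*, -0.22 to 0.27 for *Asah2*, -0.13 to 0.12 for *Smpd1*, -0.27 to 0.10 for *Smpd2*, -0.13 to 0.27 for *Sgpp2*, -0.069 to 0.013 for *S1pr1* and -0.14 to 0.29 for *S1pr4*, and share differences in percentage points over -1.53 to 0.316 for *Asah2*, -0.558 to 1.51 for *Acer3*, -0.492 to 2.83 for *Smpd1*, -2.74 to 1.55 for *Smpd2*. Of 495 comparisons of a tested gene with its value under an alternative, 402 kept direction and side of the threshold, 35 lost the call, 26 gained it and 32 changed sign. What caused them was not tested.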
